A study of Rattus norvegicus with 12 samples.

Results

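The 42 rat genes described here make and divide chromosomes. They were listed by symbol from their textbook roles. There are 8 regulators of the cell cycle, 10 genes of DNA replication and nucleotide supply, and 24 genes of mitosis. The regulators act at entry into the cell cycle, except Foxm1, which acts on the mitosis genes. The arrays carried a named probe for 40 of the 42, and the brightest probe of each gene was used. Top2a and Mcm5 had no probe under these names. The test took in a probe only if some group had it well above background in each of its 3 arrays, and 38 of the 40 met this. The 38 comprise all 8 regulators, 9 replication genes and 21 mitosis genes, out of 11211 tested genes (20020 probes) on the whole array. Aurkb and Cdca8 had a probe that was well above background on only 3 and 4 of the 12 arrays, and they were not tested. Of the tested genes, Bub1b reached that level on 8 arrays, Ccne2, Tpx2 and Ect2 on 11, and the other 34 on all 12.

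The samples were heart left ventricles of male Sprague-Dawley rats, measured on 12 one-colour arrays. All rats ate a diet with 60% fructose for 8 weeks, so none of the groups is a healthy control. The diet held either 0.64% NaCl (normal sodium) or less than 0.01% NaCl (low sodium), with 40 rats on each in the study. For the last 4 weeks rats received subcutaneous angiotensin II (AngII), the pressor peptide of the renin-angiotensin system, at 200 ng/kg/min, or no infusion. Normal sodium and low sodium, each without and with AngII, thus form 4 groups of 3 arrays. The labels give 3 numbered samples per group and do not say whether a sample is 1 animal, so p-values measure the spread between these samples. The labels do not give the age of the rats or say that the uninfused rats received a vehicle.

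A dividing cell first passes a restriction point, where D-type cyclins with Cdk4 free the E2F factors from the retinoblastoma proteins. E2F factors then switch on the genes that license origins and supply nucleotides, while mitosis genes are switched on later, through the MuvB complex with B-Myb and Foxm1, acting at a short element called the cell cycle homology region (CHR) and at neighbouring CCAAT boxes. In the adult heart cardiomyocytes divide very rarely, and most dividing cells are fibroblasts, endothelial cells and leukocytes. In a piece of bulk ventricle, fewer dividing cells and less of a messenger per dividing cell cannot be told apart.

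The difference between these 2 programmes can be read in the promoters. The reference promoters (RefSeq, assembly GRCr8, 250 bases before to 50 after each start, matched by symbol) covered 30 of the 42 genes. Both strands were searched. A CHR was taken as the letters TTTGAA or its usual variant with the letters TTTAAA, and a CCAAT box as those 5 letters. An E2F site was taken as TTGGCGC, as the second form TTCCCGC, or as the further form TTCGCGC. CHR letters were present in 18 of 19 mitosis promoters (94.7%) and in 1 of 8 replication promoters (12.5%), against 28.3% of all 33469 promoters. E2F letters were present in 4 of 19 mitosis promoters (21.1%) and in 7 of 8 replication promoters (87.5%), against 7.52% of all. CCAAT letters were frequent in both, in 16 of 19 and 6 of 8, against 37.5% of all. Different motifs overlapped in 4 of the 30 promoters. A match is a run of letters and not a measured binding site. The 7 sequences that follow are shown because these genes are given array by array below and contrast the 2 kinds of promoter. Each is the 150 bases before the start, 5′ to 3′ on the gene's strand, with all matches in capitals. A match that crosses the start is cut at the last printed base, as at the ends of Mcm3 and Mcm6.

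Cdk1 (GRCr8, chr20:19265143-19265292, plus strand): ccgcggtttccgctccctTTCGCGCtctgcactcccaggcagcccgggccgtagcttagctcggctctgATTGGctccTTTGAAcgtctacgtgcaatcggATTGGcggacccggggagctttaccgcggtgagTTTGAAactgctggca
Ccnb1 (GRCr8, chr2:33655226-33655375, minus strand): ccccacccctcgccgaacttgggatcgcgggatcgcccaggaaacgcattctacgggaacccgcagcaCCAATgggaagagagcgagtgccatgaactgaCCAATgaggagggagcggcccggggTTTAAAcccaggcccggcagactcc
Prc1 (GRCr8, chr1:143659331-143659480, plus strand): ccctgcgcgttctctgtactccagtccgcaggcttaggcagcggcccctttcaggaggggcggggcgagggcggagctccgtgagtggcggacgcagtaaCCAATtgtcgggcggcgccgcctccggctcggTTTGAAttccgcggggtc
Cdc20 (GRCr8, chr5:137255800-137255949, minus strand): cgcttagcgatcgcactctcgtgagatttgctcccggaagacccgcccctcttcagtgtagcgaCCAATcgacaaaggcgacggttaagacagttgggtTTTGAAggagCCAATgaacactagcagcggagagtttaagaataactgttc
Mcm3 (GRCr8, chr9:30733747-30733896, minus strand): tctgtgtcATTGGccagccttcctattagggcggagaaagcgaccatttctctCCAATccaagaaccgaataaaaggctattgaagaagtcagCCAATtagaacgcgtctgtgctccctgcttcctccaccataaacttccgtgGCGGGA
Mcm6 (GRCr8, chr13:42404353-42404502, minus strand): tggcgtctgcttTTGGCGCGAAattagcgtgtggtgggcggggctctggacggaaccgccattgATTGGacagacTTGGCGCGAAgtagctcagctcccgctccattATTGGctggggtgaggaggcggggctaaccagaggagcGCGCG
Mcm7 (GRCr8, chr12:22163179-22163328, minus strand): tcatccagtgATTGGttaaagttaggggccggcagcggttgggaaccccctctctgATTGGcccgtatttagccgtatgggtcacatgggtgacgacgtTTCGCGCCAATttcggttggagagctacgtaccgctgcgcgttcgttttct

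Among the 4 mitosis genes, Cdk1 held CHR letters at 2 places, each preceded by a CCAAT box read on the other strand, as well as E2F letters, and Ccnb1, Prc1 and Cdc20 had 1 CHR match each. Mcm3, Mcm6 and Mcm7, subunits of the replicative helicase, had E2F and CCAAT letters and no CHR letters in these 150 bases. Over the whole searched window, Mcm5 and Rrm1 had the same kinds of match. Mcm2, another helicase subunit, had CHR and E2F letters and no CCAAT letters. Pcna had no E2F letters and Tyms no CCAAT letters.

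Levels are given as the probe's signal in percent of that array's 75th-percentile signal over all probes, and values are listed in the order of replicate 1, 2 and 3. Where 4 sets of values follow each other, they are those of normal sodium without and with AngII and then of low sodium without and with AngII. The 75th percentile itself was 856 to 1237 intensity units across arrays, and 70.2 to 81.0% of spots were well above background. All 11 cardiomyocyte markers with a probe were above background on at least some arrays, and the atrial marker Bmp10 was above background on no array. The replicate number is also the slide: each slide carried 1 array of every group, always at the same position, so slide position and group cannot be told apart. No probe of the 20020 reached a Benjamini-Hochberg adjusted p under 0.05 in any of the 7 comparisons fitted with limma. At an unadjusted p under 0.05 these comparisons gave 360 to 2514 probes. No difference below is therefore called as changed, and the counts describe the genes beside the same counts over all probes.

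The normal sodium arrays of slide 3 stood apart for these genes before any comparison was made. Normal sodium with AngII replicate 3 was the highest of the 12 arrays for 31 of the 38 genes, including 21 of 21 mitosis genes, 6 of 9 replication genes and 4 of 8 regulators. Normal sodium replicate 3 was second for 23 of the 38, including 17 of 21 mitosis genes. The low sodium arrays of the same slide were highest for 1 (without AngII) and 0 (with AngII) of the 38. They were lowest for 8 and 4, and low sodium replicate 1 was lowest for 13. For Cdk1, normal sodium with AngII replicate 3 was 3.56-fold above the highest array outside the normal sodium arrays of slide 3. For Kif20a it was 3.13-fold above, and for Rrm2 3.03-fold. For Pcna the same ratio was 1.03-fold, and for Mcm4 1.06-fold. The medians, and the genes most raised on these arrays, are given below with and without them. The setting without both normal sodium arrays of slide 3 was chosen after the data were seen.

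**Figure D1:**
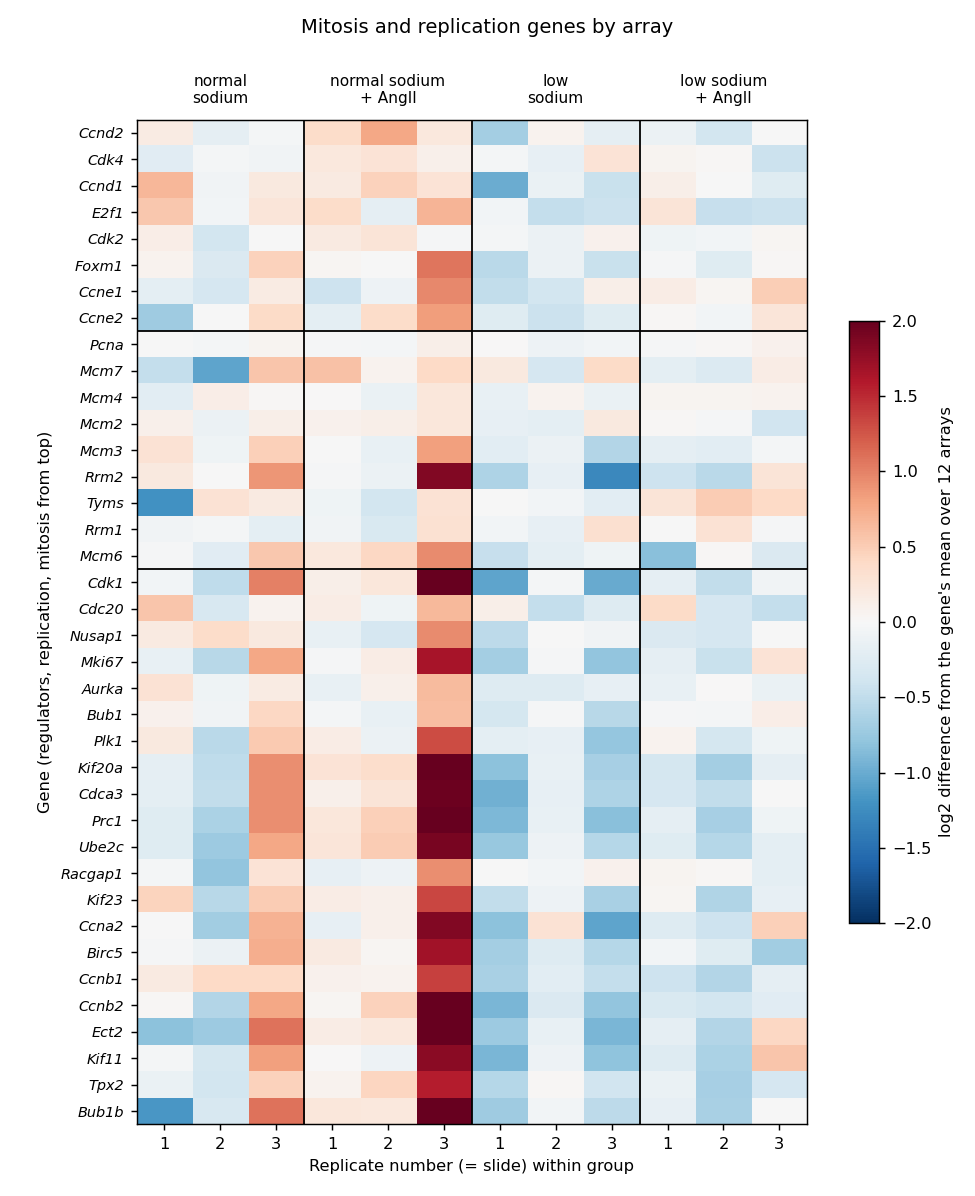
Each row is 1 of the 38 tested genes (regulators, replication and mitosis genes from top to bottom, brightest first in each block) and each column 1 array, with the replicate number on the horizontal axis and the group above. Colour is the log2 difference from the gene's own mean over 12 arrays, limited to ±2. Normal sodium with AngII replicate 3 is the darkest red column, highest in 31 of 38 genes, and normal sodium replicate 3 follows in 23.

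Over all 12 arrays the 21 tested mitosis genes were below 0 on low sodium when both infusion states were averaged, with a median log2 difference of -0.70. That size depended on slide 3 and on the processing. Without normal sodium with AngII replicate 3 the mitosis median was -0.41 with 20 of 21 below 0, without the whole of slide 3 it was -0.32, and without both normal sodium arrays of slide 3 it was -0.26. Racgap1 was the gene above 0 in each of these 3 settings. With all 12 arrays kept, the mitosis median was -0.46 with normexp background correction, -0.49 with the authors' processed values and -0.91 with array weights. Bub1b, a spindle checkpoint kinase, passed the background filter only through normal sodium with AngII, the group where it was high, so its direction was favoured by the filter; the other 20 had a median of -0.70. Over all tested probes 51.7% were below 0 and the median was -0.01. The 11 with an unadjusted p under 0.05 were all lower, where the share of all probes called lower was 7.66%. They were Ccnb2, Cdk1, Kif20a, Prc1, Cdca3, Ccnb1, Birc5, Ube2c, Tpx2, Kif23 and Aurka. None passed the adjusted threshold. The count was 6 mitosis genes without normal sodium with AngII replicate 3, and without both normal sodium arrays of slide 3 it was 4. With the slide as a replicate block 23 of the 38 genes, not 18, had an unadjusted p under 0.05. Over all probes these settings gave 2401, 2256 and 2787 in either direction, against 2514 in the main fit.

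Cdk1, the kinase whose activation starts mitosis, was at 38.4, 28.1 and 80.0% in the normal sodium arrays without AngII and 43.4, 46.7 and 166% in those with it. On low sodium it was at 19.2, 38.7 and 19.9% without AngII and 35.1, 28.3 and 38.0% with it. The high arrays were the normal sodium ones of slide 3, and without AngII the groups overlapped. With AngII the low sodium arrays all lay below the normal sodium arrays, and the difference was log2 -1.05 ± 0.53 (SE) (limma, adjusted p = 0.493). The mean low sodium effect was log2 -0.95 ± 0.37 (SE) (95% interval -1.77 to -0.13, adjusted p = 0.329). Without normal sodium with AngII replicate 3 that mean was -0.64.

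Ccnb1, cyclin B1, the partner that activates Cdk1, was at 7.79, 9.08 and 9.04% on normal sodium and 7.28, 7.19 and 17.7% with AngII added, and at 4.39, 5.95 and 4.92% on low sodium and 5.14, 4.56 and 6.09% with AngII added. It was the 1 gene of the 38 whose 6 low sodium arrays all lay below its 6 normal sodium arrays, which held for 0.859% of all probes. Its mean low sodium effect was log2 -0.84 ± 0.21 (SE), a 1.78-fold lower signal (limma, unadjusted p = 0.00247, adjusted p = 0.176), and it was -0.62 without normal sodium with AngII replicate 3. Ccnb2, cyclin B2, was at 4.26, 2.80 and 7.18% on normal sodium and 4.31, 5.77 and 18.8% with AngII added, and at 2.22, 3.43 and 2.42% on low sodium and 3.38, 3.25 and 3.58% with AngII added. Its groups separated with AngII and overlapped without it, and its mean low sodium effect of -0.97 was -0.65 without normal sodium with AngII replicate 3.

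Among the motors and spindle proteins, Kif20a, a kinesin of the central spindle, was at 12.2, 9.72 and 26.3% on normal sodium and 16.6, 17.5 and 54.7% with AngII added, and at 7.82, 12.4 and 8.67% on low sodium and 10.8, 8.56 and 12.2% with AngII added. Prc1, which bundles the microtubules of that spindle, was at 9.55, 7.23 and 21.4%, 13.2, 15.6 and 46.6%, 6.02, 10.1 and 6.31% and 9.96, 7.12 and 10.6% in the same order of groups. Both showed the pattern of Cdk1: raised on the 2 normal sodium arrays of slide 3, and higher on every normal sodium with AngII array than on any low sodium with AngII array. The difference with AngII was log2 -1.27 ± 0.47 (SE) for Kif20a (limma, adjusted p = 0.388). For Prc1 it was log2 -1.23 ± 0.50 (SE) (adjusted p = 0.415). These differences were -0.71 for Kif20a and -0.66 for Prc1 without normal sodium with AngII replicate 3. Tpx2, which seeds spindle microtubules and activates Aurora A, was at 2.98, 2.54 and 4.49%, 3.44, 4.38 and 9.65%, 2.20, 3.33 and 2.51% and 2.99, 2.06 and 2.59% in that order, with 1 low sodium with AngII array not well above background. Nusap1, which stabilises spindle microtubules, was at 39.1, 44.5 and 39.8%, 31.4, 27.5 and 67.0%, 24.2, 34.6 and 33.1% and 28.5, 27.5 and 34.5%. Nusap1 thus differed from the others: only its replicate 3 with AngII was high, and its groups separated without AngII and overlapped with it.

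The kinases and the degradation machinery of mitosis varied less evenly. Ube2c, the ubiquitin-conjugating enzyme of the anaphase-promoting complex, was at 9.41, 6.76 and 19.1% on normal sodium and 13.1, 15.8 and 41.7% with AngII added, and at 6.56, 10.3 and 7.51% on low sodium and 9.42, 7.48 and 9.69% with AngII added. Its low sodium difference was log2 -0.42 ± 0.45 (SE) without AngII and log2 -1.22 ± 0.45 (SE) with it (limma, adjusted p = 0.859 and 0.384). The difference with AngII was -0.71 without normal sodium with AngII replicate 3. Cdc20, the activator of the same complex, was at 56.9, 31.0 and 40.6%, 42.9, 36.4 and 60.7%, 41.7, 27.8 and 32.2% and 50.5, 30.4 and 27.6%. The groups of Cdc20 overlapped throughout, and its mean low sodium effect had a 95% interval of -0.81 to 0.11. Aurka, the centrosomal Aurora kinase, was at 31.2, 24.0 and 28.4%, 23.0, 27.4 and 39.4%, 21.4, 21.4 and 22.6% and 23.0, 25.8 and 23.3%, with the 3 uninfused low sodium arrays below the 3 uninfused normal sodium arrays. Its mean low sodium effect was small, log2 -0.31 ± 0.13 (SE). Birc5, survivin, the chromosomal passenger protein, was at 7.52, 7.06 and 12.7%, 8.63, 7.86 and 24.4%, 4.76, 6.40 and 5.16% and 7.38, 6.49 and 4.72%. For Birc5 the low sodium arrays lay below the normal sodium arrays both without and with AngII, by log2 -0.70 ± 0.40 (SE) and log2 -0.96 ± 0.40 (SE). The second of these was -0.43 without normal sodium with AngII replicate 3.

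Mki67, the coat protein of mitotic chromosomes used as a marker of cycling cells, was at 31.1, 23.3 and 58.7% on normal sodium and 33.8, 38.0 and 108% with AngII added, and at 21.5, 33.8 and 19.9% on low sodium and 30.5, 25.2 and 41.6% with AngII added. The groups overlapped in both diet comparisons. Its mean low sodium effect was log2 -0.61 ± 0.32 (SE) (limma, adjusted p = 0.469), and it was -0.35 without normal sodium with AngII replicate 3. Its other 2 probes gave -0.75 and -0.65 (limma, unadjusted p = 0.0428 and 0.0787, beside 0.0872 for the brightest probe). The remaining tested mitosis genes were Ccna2, Cdca3, Bub1, Bub1b, Plk1, Kif11, Kif23, Ect2 and Racgap1. Cdca3 stood at log2 -0.86 ± 0.35 (SE) and Kif23, a subunit of the centralspindlin complex, at log2 -0.65 ± 0.26 (SE). Racgap1, the other subunit of centralspindlin, was closest to 0 of all 21, at log2 -0.03 ± 0.22 (SE) (95% interval -0.52 to 0.45). The other 6 lay between -0.72 (Kif11) and -0.29 (Bub1), with intervals that include 0. The spread within groups was larger for mitosis genes, with a median SD of 0.62 on the log2 scale, than for replication genes (0.33) and regulators (0.33).

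**Figure D2:**
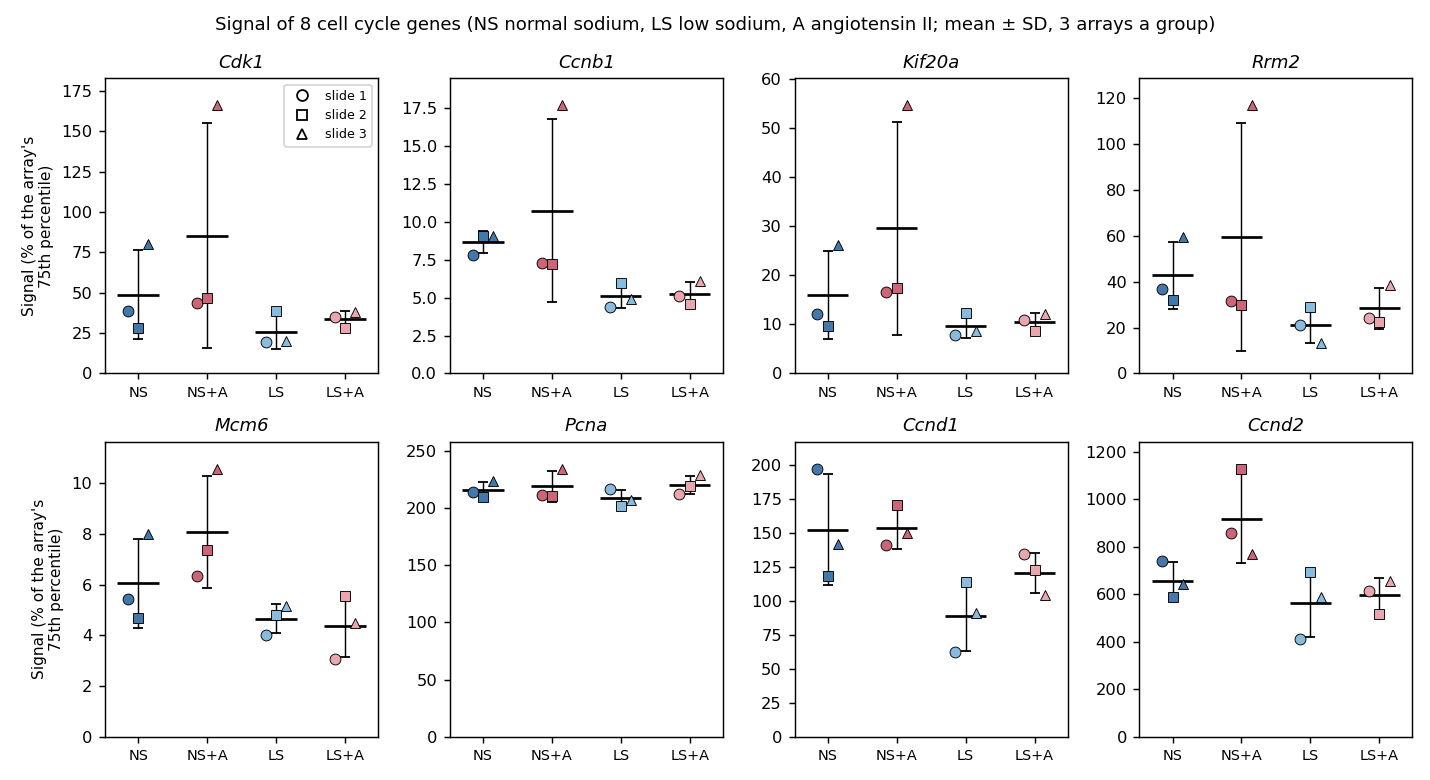
The signal of 8 genes, in percent of each array's 75th-percentile signal, is drawn for the 4 groups (NS normal sodium, LS low sodium, A with AngII). Symbols are single arrays by slide, the bar is the group mean and the whisker ±1 SD of 3 arrays. Cdk1, Kif20a and Rrm2 peak on slide 3 in both normal sodium groups, the 6 low sodium arrays of Ccnb1 lie below its 6 normal sodium arrays, and Pcna stays between 202 and 235%.

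The DNA replication genes did not share 1 direction. Averaged over infusion states, 7 of 9 were below 0 on low sodium, where 51.7% of all probes were. Their median was -0.03, near that of all probes (-0.01). The 3 with an unadjusted p under 0.05 were Rrm2, Mcm6 and Mcm3, all lower (7.66% of all probes were called lower). Pcna, the sliding clamp of the DNA polymerases, was at 214, 209.9 and 224% on normal sodium and 212, 211 and 235% with AngII added, and at 217, 202 and 207% on low sodium and 212, 219 and 229% with AngII added. Its groups overlapped, its SD within groups was the smallest of the 38 genes (0.06 on the log2 scale), and its mean low sodium effect had a 95% interval of -0.17 to 0.13.

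The helicase subunits behaved unequally. Mcm6 was at 5.44, 4.69 and 8.00% on normal sodium and 6.34, 7.34 and 10.6% with AngII added, and at 4.02, 4.81 and 5.16% on low sodium and 3.08, 5.57 and 4.48% with AngII added. With AngII its low sodium arrays all lay below its normal sodium arrays, by log2 -0.89 ± 0.27 (SE) (limma, unadjusted p = 0.00718, adjusted p = 0.319), and by -0.68 without normal sodium with AngII replicate 3. Mcm3 was at 42.9, 33.1 and 49.0%, 34.9, 31.6 and 62.3%, 30.3, 32.3 and 23.5% and 31.1, 30.5 and 34.0% in that order. Mcm3 separated without AngII, where the difference was log2 -0.53 ± 0.25 (SE) (adjusted p = 0.687), and not with AngII, where it was log2 -0.36 ± 0.25 (SE). Its second probe had a similar mean low sodium effect (-0.47 beside -0.45) but ordered the infusion states the other way, with log2 -0.23 without AngII and -0.71 with it (limma, unadjusted p = 0.266 and 0.00448). Mcm4 was at 48.1, 61.6 and 56.8%, 56.4, 51.0 and 65.1%, 50.2, 58.6 and 50.8% and 58.2, 58.0 and 58.8%. Mcm4 differed by log2 -0.01 ± 0.09 (SE) on average (95% interval -0.22 to 0.19). Mcm2 was at 49.7, 42.5 and 50.1%, 48.9, 50.1 and 54.1%, 41.3, 40.2 and 52.6% and 46.9, 45.1 and 35.5%, with the low sodium arrays below the normal sodium arrays with AngII only. Mcm7 was at 94.3, 62.7 and 192%, 196, 138 and 172%, 149.6, 103 and 171% and 114, 108 and 144%, and its groups overlapped in all 4 comparisons. The uninfused normal sodium arrays of Mcm7 spanned 62.7 to 192%.

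The nucleotide suppliers also parted. Rrm2 is the cell cycle dependent subunit of ribonucleotide reductase, and Rrm1 is its partner. The mean low sodium effect was log2 -0.92 ± 0.36 (SE) for Rrm2 (limma, adjusted p = 0.323). For Rrm1 it was log2 0.12 ± 0.13 (SE) (95% interval -0.15 to 0.40). Tyms, thymidylate synthase, was above 0 as well, at log2 0.30 ± 0.24 (SE). Without both normal sodium arrays of slide 3 the effect of Rrm2 was -0.47, and without normal sodium with AngII replicate 3 alone it was -0.60. Tyms was at 5.23, 14.8 and 13.7% on normal sodium and 11.4, 9.45 and 14.8% with AngII added, and at 11.99, 11.7 and 10.5% on low sodium and 14.5, 17.2 and 16.0% with AngII added. Normal sodium replicate 1 was its lowest array, and without it the mean low sodium effect of Tyms was 0.06. Rrm1 and Tyms were the only 2 of the 38 genes above 0 in this comparison over all 12 arrays.

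Scores put the 3 roles on 1 scale, as the mean over genes of the log2 difference from each gene's own mean over 12 arrays. The mitosis score was -0.06, -0.39 and 0.65 on normal sodium and 0.07, 0.13 and 1.56 with AngII added. On low sodium it was -0.61, -0.12 and -0.59, and -0.15, -0.43 and -0.06 with AngII added. The replication score was -0.16, -0.13 and 0.29 on normal sodium and 0.07, -0.05 and 0.58 with AngII added. On low sodium it was -0.16, -0.14 and -0.16, and -0.15, -0.02 and 0.02 with AngII added. Both scores peaked on the same array, and the mitosis score had the larger range. Outside slide 3 the mitosis scores of normal and low sodium arrays overlapped without AngII, while with AngII both normal sodium scores lay above both low sodium scores.

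**Figure D3:**
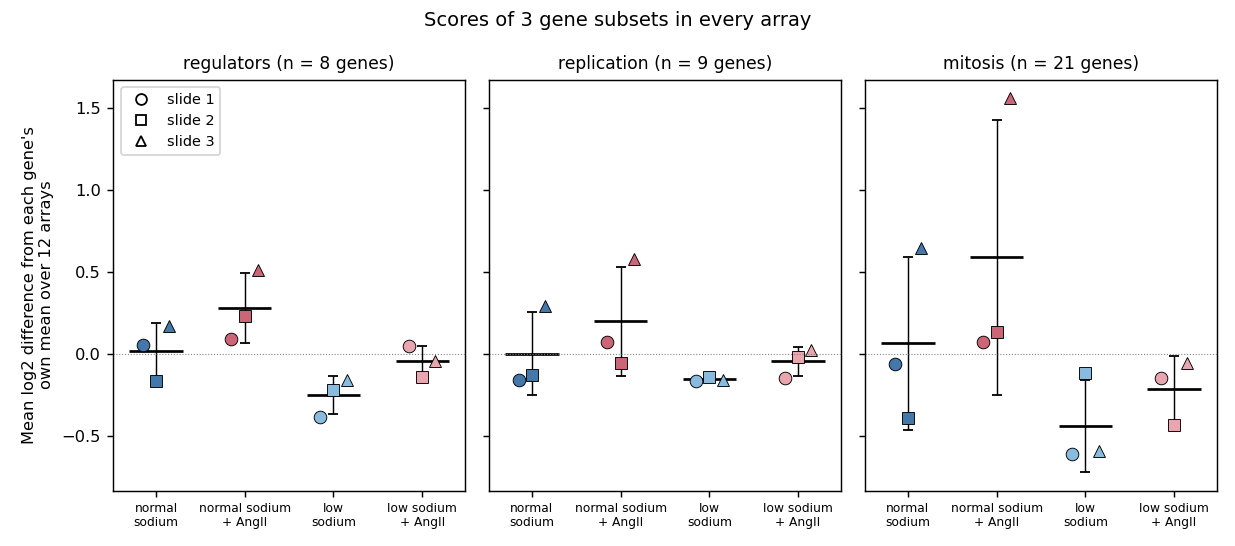
The score of each array (vertical axis, mean log2 difference from each gene's own mean) is drawn for 8 regulators, 9 replication genes and 21 mitosis genes in the 4 groups, with symbols by slide, a bar for the group mean and whiskers of ±1 SD over 3 arrays. The slide 3 symbol of normal sodium with AngII is the highest in all 3 panels, reaching 1.56 for mitosis and 0.58 for replication.

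The regulators lay below 0 on low sodium in 8 of 8 cases, with a median of -0.33, where 51.7% of all probes were below 0. Without normal sodium with AngII replicate 3 that median was -0.19 and 7 of 8 were below 0, Ccne1 being above. The 4 with an unadjusted p under 0.05 (7.66% of all probes were called lower) were Ccnd1, E2f1, Foxm1 and Ccnd2. Ccnd1, cyclin D1, which links growth signals to Cdk4, was at 198, 118 and 142% on normal sodium and 141, 171 and 150.1% with AngII added, and at 62.5, 114 and 91.2% on low sodium and 134, 123 and 105% with AngII added. Its low sodium arrays lay below its normal sodium arrays in both infusion states, by log2 -0.79 ± 0.24 (SE) without AngII (limma, unadjusted p = 0.00683, adjusted p = 0.588) and by log2 -0.35 ± 0.24 (SE) with it. The array that stood highest for the mitosis genes did not carry the mean effect. Without normal sodium with AngII replicate 3 the mean low sodium effect of Ccnd1 was -0.58, beside -0.57. The difference without AngII does not involve that array and was uneven between slides. Low and normal sodium stood at 62.5 and 198% on slide 1, 114 and 118% on slide 2, and 91.2 and 142% on slide 3. Normal sodium replicate 1 was the highest array for Ccnd1. It had the lowest array weight (0.245) and the most probes without a value (54). The effect of Ccnd1 without normal sodium replicate 1 is not given here. Ccnd2, cyclin D2, was at 741, 589 and 643%, 857, 1129 and 768%, 412, 694 and 587% and 614, 517 and 657% in the same order. For Ccnd2 the normal sodium with AngII arrays stood above both the uninfused normal sodium arrays and the low sodium with AngII arrays, and the highest was replicate 2.

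The kinases bound by these cyclins had mean low sodium effects near 0, but Cdk4 did not stay level across groups. Cdk4 was at 213, 244 and 238% on normal sodium and 289, 301 and 268% with AngII added, and at 244, 221 and 301% on low sodium and 259.7, 254 and 185% with AngII added. The normal sodium with AngII arrays of Cdk4 lay above all uninfused normal sodium arrays and above all low sodium with AngII arrays. Cdk2, the partner of cyclin E, was at 11.3, 8.03 and 10.4%, 11.7, 12.4 and 10.2%, 10.1, 9.54 and 10.9% and 9.78, 10.02 and 10.6%. The 95% interval of the mean low sodium effect was -0.34 to 0.16 for Cdk4 and -0.28 to 0.16 for Cdk2. E2f1, the activating E2F factor, was at 31.5, 21.0 and 25.7%, 28.1, 19.1 and 34.8%, 21.0, 15.6 and 16.1% and 26.1, 15.7 and 16.2%, with a mean low sodium effect of log2 -0.53 ± 0.19 (SE) (limma, adjusted p = 0.288). Foxm1, the forkhead factor of the mitosis genes, stood at log2 -0.45 ± 0.20 (SE). The E-type cyclins Ccne1 and Ccne2 stood at -0.02 and -0.23, with intervals that include 0.

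**Figure D4:**
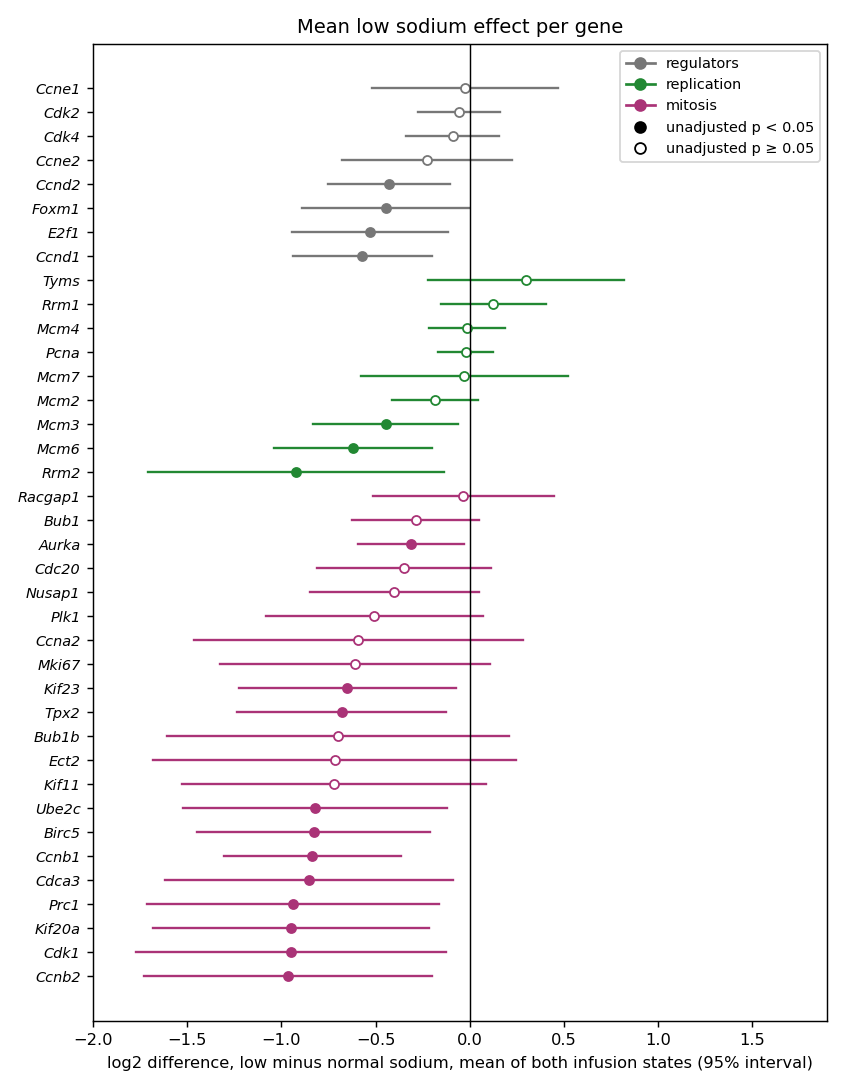
The horizontal axis is the log2 difference, low minus normal sodium, averaged over infusion states, with its 95% interval from limma for each of the 38 genes; filled points have an unadjusted p under 0.05 and colours give the role. All 21 mitosis genes and 8 regulators lie left of 0, while the 9 replication genes spread from -0.92 (Rrm2) to 0.30 (Tyms).

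Over all 12 arrays more of the genes separated by diet with AngII than without it. The difference between the infusion states, tested as the interaction, was however past the adjusted threshold for none. With AngII, 33 of 38 genes were below 0 on low sodium (52.1% of all probes; median -0.53), 9 had an unadjusted p under 0.05 (5.87% of all probes were called lower), and 16 had no overlap between groups (10.4% of all probes). Of those 16, 11 were mitosis genes, 3 regulators and 2 replication genes. Without AngII, 32 of 38 were below 0 (53.4% of all probes; median -0.44), 2 had an unadjusted p under 0.05 (4.32% of all probes), namely Ccnd1 and Ccnb1, and 7 did not overlap (6.03% of all probes). With the slide as a replicate block the counts at an unadjusted p under 0.05 were 14 with AngII and 5 without, and again none passed after adjustment. Over all probes the block gave 2323 and 1770 in either direction, against 2210 and 1437. The interaction had none of the 38 with an unadjusted p under 0.05, where the background was 5.08% of all probes.

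Both diet comparisons depended on slide 3. Within slides 1, 2 and 3 the median over the 38 genes was -0.51, 0.11 and -0.86 without AngII, and -0.15, -0.38 and -1.13 with AngII. For the mitosis genes the medians were -0.64, 0.35 and -1.35 without AngII and -0.23, -0.66 and -1.54 with it. On slide 2 without AngII the direction was the opposite one, with a mitosis score of -0.12 in low sodium replicate 2 and -0.39 in normal sodium replicate 2. Without normal sodium with AngII replicate 3 the median with AngII was -0.24 and 4 genes, not 9, had an unadjusted p under 0.05, while without AngII the count rose from 2 to 11. The differences without AngII do not involve that array and stayed the same (median -0.44), so this rise came through the shared estimate of the spread, and the order of the 2 counts turned. Over all probes, leaving out that array gave 2155 with AngII (2210 in the main fit) and 1351 without it (1437). Without the whole of slide 3 the mean low sodium effect had a median of -0.19 and 5 genes, not 18, at that level. Without the 2 normal sodium arrays of slide 3 the median was -0.21 with 7 genes. In these 2 settings 1844 and 2256 of all probes were at that level, against 2514.

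**Figure D5:**
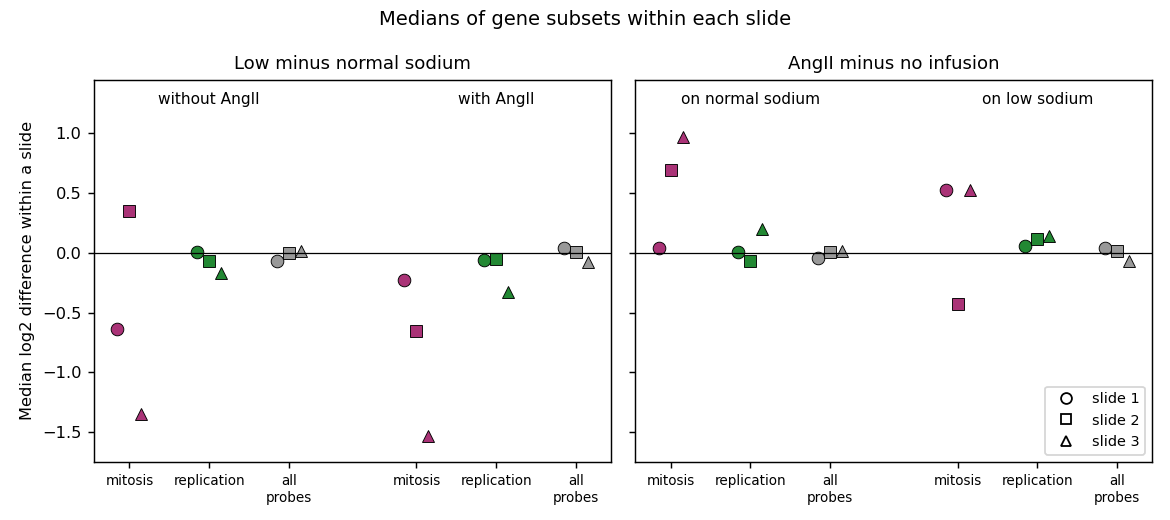
Each symbol is the median log2 difference within 1 slide (1 array against 1 array) over 21 mitosis genes, 9 replication genes or all tested probes, for low minus normal sodium on the left and AngII minus no infusion on the right. Mitosis medians range from -1.54 to 0.35 for low sodium, with slide 3 lowest in both infusion states, while those of all probes stay between -0.08 and 0.04.

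AngII did not move any of the 38 genes past the adjusted threshold. On normal sodium 36 of 38 lay above 0 with AngII (49% of all probes), with a median of 0.39, but the medians within slides 1, 2 and 3 were 0.03, 0.40 and 0.70, and without normal sodium with AngII replicate 3 the median was 0.02. It was 0.15 with normexp background correction, 0.13 with the authors' processed values and 0.23 with array weights. Ccnd2 alone had an unadjusted p under 0.05, at log2 0.47 ± 0.21 (SE) (limma, unadjusted p = 0.046, adjusted p = 0.65), where 3.64% of all probes were called higher. The groups did not overlap for Ccnd2 and Cdk4 (6.2% of all probes). The count at an unadjusted p under 0.05 was 3 with the slide as a replicate block, 11 without normal sodium replicate 3, 8 without slide 3, 7 without both normal sodium arrays of slide 3, 5 without normal sodium with AngII replicate 1, 2 without its replicate 3, 2 without normal sodium replicate 1 and 0 without its replicate 2, and no gene of the 38 passed after adjustment in any of these. Over all probes these settings gave 1716, 2431, 2287, 2182, 1105, 1560, 1084 and 1758, against 1478 in the main fit. On low sodium 30 of 38 lay above 0 (51.1% of all probes), with a median of 0.16, none had an unadjusted p under 0.05 (1.07% of all probes were called higher), and Ccne2, Aurka and Tyms did not overlap (3.52% of all probes). Averaged over diets 37 of 38 lay above 0 (48.4% of all probes), with a median of 0.29, Nusap1 being the exception, and none had an unadjusted p under 0.05 (1.83% of all probes). With the replicate block 3 genes were at that level in the average and 1 on low sodium. Over all probes the block gave 835 and 476, against 578 and 360. The average had 6 genes without normal sodium replicate 3, 9 without both normal sodium arrays of slide 3, 3 without slide 3 and 3 without normal sodium with AngII replicate 1. Over all probes these settings gave 1127, 1026, 1601 and 533.

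Other genes of the same pathways were taken from lists of further mitosis and replication genes. Of the 28 further mitosis genes tested, 27 were below 0 in the mean low sodium effect (51.7% of all probes), with a median of -0.58, and 11 had an unadjusted p under 0.05, all lower (7.66% of all probes). One of them, Cenpa, the centromeric histone, passed the background filter only through normal sodium with AngII; without it 26 of 27 were below 0, with a median of -0.53, and 10 were at that level. Of the 30 further replication genes, 22 were below 0, with a median of -0.10. At an unadjusted p under 0.05, 7 were lower and 1 was higher, where 980 of the 20020 probes were called higher. These genes were measured on the same arrays. Within slides 1, 2 and 3 the medians were -0.30, -0.13 and -1.23 for mitosis and -0.12, -0.05 and -0.23 for replication. Cdc25b, a phosphatase that activates Cdk1, was at 163, 98.6 and 92.4% on normal sodium and 195, 196 and 185% with AngII added, and at 154, 111 and 124% on low sodium and 199, 140.1 and 131% with AngII added. Its difference between the normal sodium groups was 0.75 ± 0.23 (SE; limma, adjusted p = 0.65), with no overlap.

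Of the 15 cell cycle inhibitors and pocket proteins tested, 9 were below 0 and 6 above in the mean low sodium effect, where 51.7% of all probes were below 0. At an unadjusted p under 0.05 none was lower and 1 was higher, where 980 of the 20020 probes were called higher. The 1 higher gene was Cdkn1c (p57), an inhibitor of cyclin-dependent kinases. With AngII it ran opposite to the mitosis genes in the diet comparison, while without AngII its diet groups overlapped. Cdkn1c was at 81.5, 88.7 and 76.2% on normal sodium and 57.8, 52.8 and 58.0% with AngII added, and at 83.3, 89.2 and 82.6% on low sodium and 104, 94.5 and 91.9% with AngII added. The 3 normal sodium with AngII arrays were the lowest of all 12, replicate 3 being level with replicate 1. The low sodium difference with AngII was 0.78 ± 0.10 (SE), with 0.84, 0.84 and 0.66 within slides 1, 2 and 3 (limma, unadjusted p = 1.29e-05, adjusted p = 0.0646). The difference had a similar size on all 3 slides. That of Cdk1 with AngII had the same direction on all 3 but was largest on slide 3. Cdkn2c (p18), an inhibitor of Cdk4 and Cdk6, was at 6.84, 10.9 and 14.4%, 15.8, 16.2 and 17.6%, 10.8, 8.52 and 13.0% and 11.3, 9.75 and 9.81%, and was thus highest where Cdkn1c was lowest.

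Of the 14 E2F, MuvB and Myc factors tested, 8 were below 0 and 6 above in the mean low sodium effect, where 51.7% of all probes were below 0. In each direction 2 had an unadjusted p under 0.05, where 7.66% of all probes were called lower and 980 of the 20020 higher. Mycn, the Myc family member of growing embryonic tissue, was at 55.6, 27.6 and 50.5% on normal sodium and 37.0, 52.4 and 33.7% with AngII added, and at 17.8, 16.1 and 19.7% on low sodium and 15.9, 20.2 and 20.8% with AngII added. All 6 low sodium arrays lay below all 6 normal sodium arrays. The mean effect was -1.18 ± 0.18 (SE), and -1.43, -1.08 and -1.03 within slides 1, 2 and 3 (limma, unadjusted p = 5.71e-05, adjusted p = 0.114). Cdk6, which works with D-type cyclins as Cdk4 does, was at 10.9, 11.7 and 11.1%, 9.05, 8.09 and 10.04%, 5.30, 7.39 and 7.73% and 7.90, 7.81 and 7.91%. Without AngII its low sodium arrays lay below its normal sodium arrays by -0.74 ± 0.15 (SE; limma, adjusted p = 0.464).

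In the mean low sodium effect, markers of several other cell types of the ventricle lay mostly below 0. Smooth muscle and pericyte, red cell and atrial markers lay mostly above 0. None passed the adjusted threshold. The counts stand beside 51.7% of all probes below 0 and 7.66% called lower. The summed level of the 9 fibroblast markers with a probe (of 10) was 9782 to 11041% on normal sodium and 10486 to 12211% with AngII added, and 7924 to 8175% on low sodium and 8414 to 9409% with AngII added, with 9 of 9 below 0 in the mean low sodium effect and 7 at an unadjusted p under 0.05. The 15 macrophage markers summed to 1991 to 2197%, 1786 to 2185%, 1310 to 2064% and 1473 to 1716% in the same order, with 15 of 15 below 0 and 8 at that level. The 10 endothelial markers (of 11) summed to 3908 to 6279%, 4468 to 4570%, 3760 to 4628% and 4071 to 4205%, with 10 of 10 below 0 and 3 at that level. Red cell markers, 9 of 11 with a probe, summed to 21471 to 27587% in normal sodium and 39780 to 47055% in normal sodium with AngII, and to 26118 to 37276% in low sodium and 31220 to 35115% in low sodium with AngII. Of the 8 red cell markers tested, all 8 were above 0 on low sodium without AngII and 6 were below 0 with it. Of the other lists, 9 of 11 cardiomyocyte, 8 of 9 lymphocyte, 2 of 4 neutrophil, 4 of 11 smooth muscle and pericyte, 2 of 8 red cell and 1 of 4 atrial markers tested were below 0. No fibroblast, macrophage, endothelial or red cell marker with a probe was below background on every array. The part of these cell types in the levels of the mitosis genes was not tested.

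Read against the promoters shown above, the mean low sodium effect had a median of -0.70 over the 13 tested genes with CHR letters and no E2F letters, -0.65 over the 5 with both, -0.04 over the 6 with E2F letters alone and -0.09 over the 3 with neither. These medians were -0.40, -0.38, -0.06 and -0.11 without normal sodium with AngII replicate 3, and without both normal sodium arrays of slide 3 they were -0.24, -0.16, 0.05 and -0.10. The class with CHR letters alone was made of 12 mitosis genes and Ccne1, and the class with E2F letters alone of Mcm3, Mcm6, Mcm7, Rrm1, Tyms and Cdk2, so the classes nearly repeat the roles. Within the E2F class the values ran from -0.62 (Mcm6) to 0.30 (Tyms). The mitosis gene Cdca3, at -0.86, had neither CHR nor E2F letters in its window.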

How the data were processed

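The deposited scanner files hold the authors' signal intensity of each spot, from Agilent Feature Extraction 10.7.3.1 per the file headers, background-subtracted and with no scaling between arrays, and flags with a value of 0 or 1 for spots well above background or outlying. The submitters' processing notes name Feature Extraction 11.0.1.1, R 3.3.04 and limma. The deposited matrix holds the authors' log2 values, whose normalization between arrays is not given in the sources used here; its columns have medians of 8.81 to 8.95, and it was used only as an alternative. Across probes, Spearman's rho between a matrix column and the scanner file of the same sample was 0.996 to 0.999.

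Control and outlier-flagged spots were left out, repeated probes averaged, and values expressed as log2 of the processed signal minus the array's own 75th percentile over non-control probes. Probes well above background in at least 0.5 of their spots on all 3 arrays of 1 group were tested. Genes were named through RefSeq accessions (GRCr8, names only; 18758 of 30367 probes with 1 symbol, 0 with several and 11609 with none). limma 3.58.1 in R 4.3.3 fitted 1 mean per group over 12 arrays, with Benjamini-Hochberg adjustment over 20020 probes at 0.05; scripts were tested on simulated data. The fit without the slide as a block is the main one. Same-numbered arrays deviated together (number 1 had correlations of 0.333 to 0.432, number 2 of 0.119 to 0.307, and number 3 of 0.046 to 0.229), and the file headers give 1 slide per number. The normexp alternative used the median spot signal, with an offset of 50.

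The genes and lists were chosen with earlier results of these data known. All 42 genes could be named; values in every array are given for the 5 brightest of each role and for genes with an unadjusted p under 0.05 in a comparison of 2 groups. Of the further lists, the 3 genes with the smallest p per comparison could be named. Promoters shown are of genes given in every array that hold a motif. The number of arrays limits the precision.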

Additional observations from a re-analysis of the deposited data

How the results depend on the processing

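In no setting tried did any of the 38 genes pass the adjusted threshold. Over 26 alternatives or, for comparisons of 2 groups, 27, the median of the 38 genes kept its sign except in the interaction, where 2 alternatives lay above 0; single slides are given apart. Probes called on the whole array were 0 in every comparison of the main setting. For AngII on normal sodium they were 5 with normexp, 5 with the authors' processed values, 3 with probes above background on all arrays, and 0 to 9 leaving out each array. For AngII on low sodium they were 3 with array weights and 2 with only the groups of the comparison. For low sodium with AngII they were 1 with quantile normalization, 3 with normexp, 2 with the authors' values, 4 with probes above background on all arrays, 1 with a gene's probes averaged, 150 with array weights, and 0 to 3 leaving out each array. For low sodium without AngII they were 0 to 1 leaving out each array, and 1 without both normal sodium arrays of slide 3, a setting chosen after seeing the data. For the mean low sodium effect they were 4 with normexp, 1 with no filter, 137 with array weights, 0 to 23 leaving out each array, and 3 without both normal sodium arrays of slide 3. The cause of these calls was not tested.

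The median of the 38 genes was 0.023 to 0.54 for AngII on normal sodium when each array was left out, lowest without normal sodium with AngII replicate 3, and 0.029 within slide 1; it was 0.146 with normexp, 0.132 with the authors' processed values and 0.230 with array weights, against 0.388. Mitosis medians for low sodium with AngII were -0.49 with normexp and -0.46 with the authors' values, against -0.90, and for the mean low sodium effect -0.46 with normexp and -0.49 with the authors' values, against -0.70. The interaction was 0.33 within slide 1, against -0.16 over all arrays. The low sodium effect with AngII was -0.15 within slide 1 and -1.13 within slide 3, that without AngII 0.11 within slide 2 and -0.86 within slide 3, and the mean -0.14 within slide 2 and -0.95 within slide 3. Genes of the 38 with an unadjusted p under 0.05 for low sodium with AngII (9 in the main setting) were 14 with the replicate block, 20 with array weights, 4 without slide 2, and 3 to 13 leaving out each array. Over all probes these settings gave 2323, 4583, 855 and 1218 to 2754, against 2210. Without AngII (2) the gene counts were 1 with quantile normalization, 6 with normexp, 5 with the replicate block, 4 with array weights, 7 with only the groups of the comparison, 0 without slide 1, 6 without slide 2, 6 without both normal sodium arrays of slide 3, and 1 to 11 leaving out each array, highest without normal sodium with AngII replicate 3. Over all probes these settings gave 1464, 1913, 1770, 1752, 993, 810, 1440, 1679 and 994 to 2396, against 1437. For the mean (18) the gene counts were 5 without slide 3, 7 without both normal sodium arrays of slide 3, and 8 to 22 leaving out each array, lowest without normal sodium replicate 3. Over all probes these settings gave 1844, 2256 and 1813 to 3440, against 2514. The replicate block gave 23 genes and 2787 probes there and changed no adjusted call. Scaling by the percentile over spots or over probes above background on all arrays kept each count within 1.5 times. Dim probes (Bub1b, Ccne2, Tpx2, Ect2) are limited by signal over background.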
